A study of Homo sapiens with 9 samples.

Results

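The comparison described here set the cells that received either siRNA against ALKBH5 against the cells that received the control siRNA, and asked which transcripts moved whichever sequence was used. It was made in PC9, an established human lung adenocarcinoma cell line with an activating EGFR deletion, from RNA collected 96 h after transfection at 15 nM, the cells having been plated 24 h earlier. All 9 arrays of the series entered it: 3 of siALKBH5#1 and 3 of siALKBH5#3, which are siRNAs of different sequence against the same mRNA, and 3 of siControl, the non-targeting siRNA. All 3 groups were therefore transfected, and none was left untreated. The pooled change of a transcript was taken as the mean of the siALKBH5#1 and siALKBH5#3 effects on the log2 scale, with the siRNA sequence kept in the model, and a transcript was called changed at an adjusted p under 0.05 by limma. Of 21448 transcript clusters (on the Clariom S array, each is a set of probes read as one gene), 2073 had all 6 siRNA arrays above or all 6 below all 3 siControl arrays. These are called separated clusters below, and those that were also called changed are the common response. The labels describe the 3 arrays of a group as biological replicates without saying whether the cultures were separate, so the p-values measure the spread between these samples.

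ALKBH5 is an RNA demethylase that removes the methyl group of N6-methyladenosine (m6A), the commonest internal mark of mRNA, and FTO is the other known eraser of this mark. The mark is written by a complex built on METTL3 and METTL14 and is read by YTH-domain, IGF2BP and other RNA-binding proteins, which alter how long an mRNA lasts and how well it is translated. An siRNA lowers its target by pairing with the mRNA, but it can also pair in part with other mRNAs through its own seed, which differs between sequences. Values shared by siRNAs of different sequence are for this reason commonly read apart from values that belong to a single sequence.

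The arrays were alike in scale, with median intensities of 102.67 to 105.175, and the log2 values of arrays of the same group correlated at 0.994 to 0.997 (Pearson's r), those of different groups at 0.988 to 0.993. The 7 epithelial markers of this line were bright, at the 90.7th to 99.9th percentile of clusters on the siControl arrays, and their summed intensity was 401938 to 407461 in siControl, 374188 to 377330 in siALKBH5#1 and 400171 to 406442 in siALKBH5#3. None of 9 fibroblast markers passed the test, and their sums overlapped between all groups (427 to 475 in siControl, 370 to 445 and 399 to 473 with the siRNAs). Of 10 endothelial markers PECAM1 alone fell, by 0.88 ± 0.13 (log2 ± SE) from dim control values of 144 to 173, with list sums of 10968 to 14280 in siControl, 9772 to 11163 in siALKBH5#1 and 13827 to 15757 in siALKBH5#3. Of 9 immune markers only CD68 rose (0.52 ± 0.11), a call lost without siControl replicate 1 (adjusted p = 0.0508), and the sum of that list was 5308 to 5598 in siControl, 7171 to 8279 in siALKBH5#1 and 6231 to 6725 in siALKBH5#3. None of 12 reference genes passed the test.

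ALKBH5 itself gave intensities of 2815, 3308 and 2361 on the siControl arrays, 112, 96.7 and 113 with siALKBH5#1, and 56.8, 30.0 and 34.8 with siALKBH5#3. All 6 siRNA arrays lay far below the controls, and the gap between the highest siRNA array and the lowest control was 4.39 on the log2 scale. The pooled fall was 43.4-fold (95% confidence interval 32.9 to 57.3, adjusted p = 4.2e-08), and it was deeper with siALKBH5#3 by 1.45 on the log2 scale (adjusted p = 0.000487). The ALKBH5 cluster covers chr17:18183828-18209954 (GRCh38), and with either siRNA its signal ended at or below the 50.8th percentile of clusters.

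By limma, 1992 of 21448 clusters (9.29%) were called in the pooled comparison, 1138 higher (5.31% of those tested) and 854 lower (3.98%). The separated clusters numbered 2073 (9.67%), of which 1137 had all siRNA arrays above siControl (5.3%) and 936 had all below (4.36%). The 2 sets met in 1212 clusters, 716 higher and 496 lower, which made up 60.8% of the called clusters and 58.5% of the separated ones. The remaining 780 called clusters (422 higher, 358 lower) had at least 1 siRNA array inside or beyond the control range, and 861 separated clusters did not pass the test. Most of the common response was small: the median pooled change was 0.58 for the 716 higher and -0.56 for the 496 lower clusters. The sign of these medians was set by the choice of the clusters, which also kept out the smallest changes. Beyond 2-fold there were 88 clusters (55 higher, 33 lower). The siRNA comparisons share the 3 siControl arrays, so an odd control value would move both siRNA effects the same way. The count of calls was 1125 without siControl replicate 1, 1252 without siControl replicate 2 and 1862 without siControl replicate 3. It was 232 when the siRNA sequence was left out of the model, so that the difference between the siRNAs counted as error, and 20 when the sequence was a random block. Of the gene lists described below, those 20 held ASNS, CHAC1 and SLC1A5 of the amino acid response, E2F1, CCND3, CASP14, TNFSF10, SERPINB7, MFAP5, AGR2 and ALKBH5, and no member of the other lists. Of the genes named below that are in no list, only ALDH3B2, HMGA2, DNMT3B and EYA1 were among them.

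The siRNAs were then compared with each other within the same fit, in which the siControl arrays entered only the estimate of the spread. Over all clusters, 4097 (19.1%) differed between siALKBH5#3 and siALKBH5#1. Among the 1992 pooled calls 941 differed (47.2%), 308 of them in the common response (25.4% of 1212) and 633 among the called clusters whose arrays overlapped the controls (81.2% of 780). These shares are a description, since a called cluster with overlapping arrays nearly has to have 1 small siRNA effect. Of the common clusters beyond 2-fold, 61 of 88 differed between the siRNAs (69.3%). In 115 of the 1212, one of the siRNA effects was under 1.2-fold. A transcript that is high or low with both siRNAs is thus described here with its value for each.

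**Figure D1:**
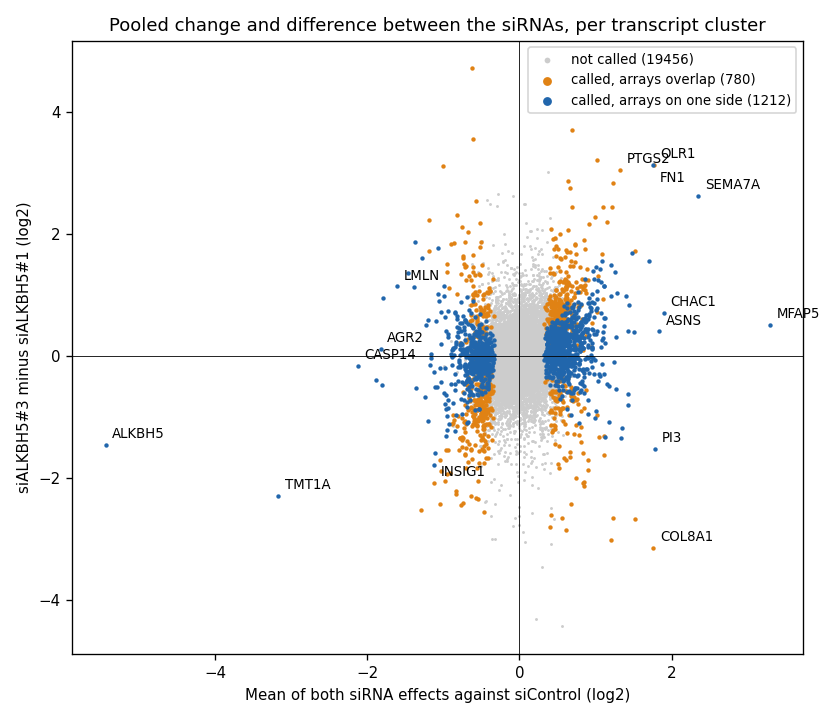
Each point is 1 of 21448 transcript clusters, with the mean of both siRNA effects against siControl on the x axis and siALKBH5#3 minus siALKBH5#1 on the y axis, both on the log2 scale. The 1212 called clusters with separated arrays lie mostly near the horizontal line of no difference, while the 780 with overlapping arrays lie mostly above or below it.

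MFAP5, a glycoprotein of extracellular microfibrils, had the highest pooled change. Its intensity was 228, 285 and 361 in siControl, 2246, 2393 and 2382 with siALKBH5#1, and 3854, 3287 and 2966 with siALKBH5#3. Every siRNA array was far above every control, and the siALKBH5#3 arrays lay above the siALKBH5#1 arrays. The pooled rise was 9.78-fold (7.88 to 12.1, adjusted p = 3.85e-07), with 8.17-fold for siALKBH5#1 and 11.7-fold for siALKBH5#3.

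SEMA7A, a membrane-anchored semaphorin, rose 5.10-fold in the pooled comparison (3.75 to 6.94, adjusted p = 9.43e-05), but very unevenly. It read 337, 226 and 483 in siControl, 544, 739 and 790.3 with siALKBH5#1, and 4206, 4620.4 and 3873 with siALKBH5#3. The gap to the controls was only 0.17 on the log2 scale, set by the lowest siALKBH5#1 array. OLR1, a scavenger receptor for oxidised lipoprotein, was the extreme case. It read 1284, 1387 and 1165 in siControl, 1423, 1560.2 and 1396 with siALKBH5#1, and 12277, 12233 and 13954 with siALKBH5#3. Its arrays were separated by 0.01 on the log2 scale, and its siALKBH5#1 effect of 1.14-fold did not pass (adjusted p = 0.366) beside a rise of 3.33 ± 0.12 on the log2 scale (± SE) with siALKBH5#3. PI3, the elastase inhibitor elafin, leaned the other way, at 4159.9, 3868 and 3659 with siALKBH5#1, 1303, 1297 and 1459 with siALKBH5#3 and 750.2, 668 and 589 in siControl. The pooled calls of SEMA7A, OLR1 and PI3 were lost when the siRNA sequence was left out of the model (adjusted p = 0.138, 0.315 and 0.0638).

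Of the common higher genes given next, E2F1 and SERPINB7 were the more even, and their difference between the siRNAs did not pass by limma (adjusted p = 0.0642 and 0.125). E2F1, a transcription factor that drives entry into S phase, read 245, 242 and 288 in siControl, 681, 529 and 599 with siALKBH5#1, and 838, 860 and 695 with siALKBH5#3. The lowest siRNA array lay 0.88 above the highest control on the log2 scale, and the pooled rise was 2.68-fold (2.23 to 3.22, adjusted p = 8.26e-05). SERPINB7, a serine protease inhibitor of stratified epithelia, rose 2.83-fold (2.29 to 3.50), HMGA2, a chromatin protein of embryonic and tumour cells, rose 2.70-fold (2.29 to 3.18), and OSBP2, an oxysterol-binding protein, rose 2.68-fold (2.27 to 3.17). HMGA2 and OSBP2 were higher with siALKBH5#1, by 0.62 and 0.80 on the log2 scale. ADAMTS9, a secreted metalloproteinase, ULBP1, a ligand of the NKG2D receptor of natural killer cells, and THBD, the thrombin receptor thrombomodulin, rose 3.27-fold, 2.80-fold and 2.65-fold. All 3 were higher with siALKBH5#3 and started from dim signals of 26.3 ± 7.77, 90.9 ± 11.5 and 20.9 ± 0.41 in siControl (SD, n = 3). In the same order, they rose 1.90-fold, 1.56-fold and 1.88-fold with siALKBH5#1. With siALKBH5#3 they rose 5.62-fold, 5.02-fold and 3.71-fold. The calls of ADAMTS9 and ULBP1 were lost without the siRNA sequence in the model (adjusted p = 0.0934 and 0.145).

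**Figure D2:**
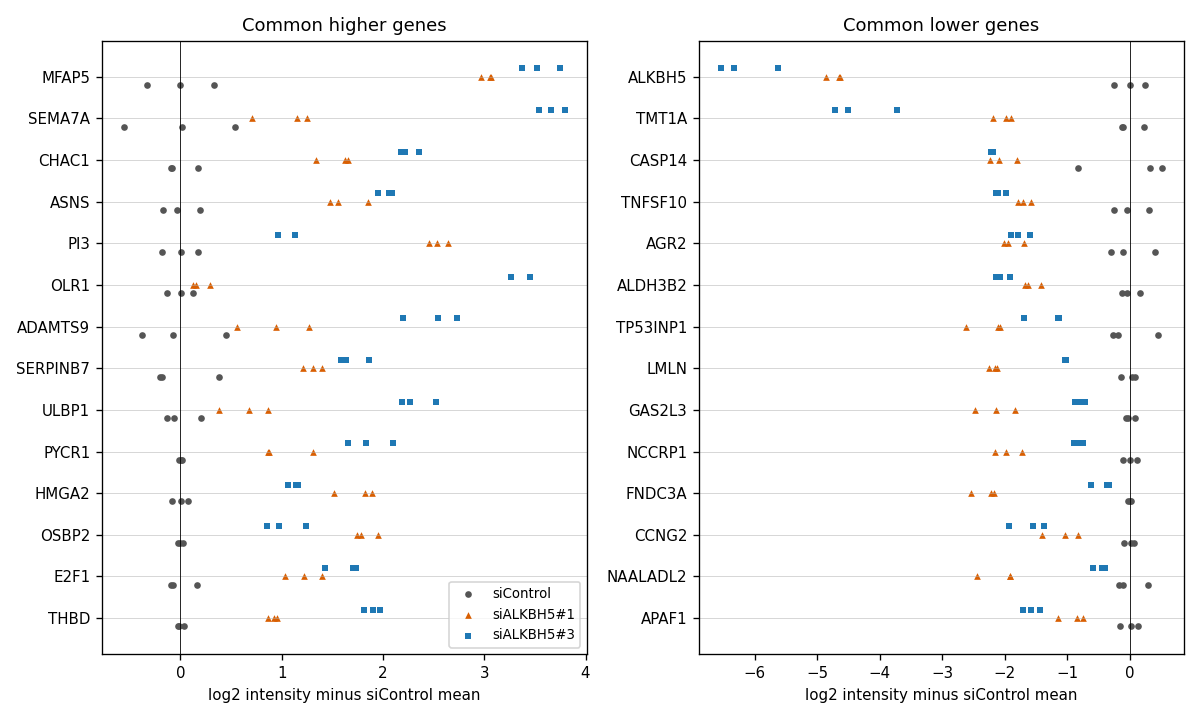
Points are single arrays of the 14 highest and 14 lowest common genes, as log2 intensity minus the siControl mean of that gene on the x axis, with grey circles for siControl, orange triangles for siALKBH5#1 and blue squares for siALKBH5#3 (3 arrays each). By the rule that chose these genes no siRNA array crosses the control range. OLR1, SEMA7A, ULBP1, FNDC3A and NAALADL2, among others, have 1 siRNA close to it.

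Apart from ALKBH5, the lowest common gene was TMT1A, a methyltransferase of thiol compounds that is also known as METTL7A. It read 1896, 1476 and 1497 in siControl, 355, 408 and 434 with siALKBH5#1, and 122, 71.1 and 61.4 with siALKBH5#3. The gap between the highest siRNA array and the lowest control was 1.77 on the log2 scale. The pooled fall was 8.98-fold (6.74 to 12.0, adjusted p = 4.68e-06), with 4.05-fold and 19.9-fold for the single siRNAs. TMT1A was still called by limma without the siRNA sequence in the model (adjusted p = 0.0372), but not with the siRNA as a random block (0.0815).

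TNFSF10, the death ligand TRAIL, and AGR2, a disulfide isomerase of secretory epithelium, fell by similar amounts with both siRNAs. TNFSF10 went from 2047, 1607 and 1389 in siControl to 505, 482 and 555 with siALKBH5#1 and 420, 376 and 383 with siALKBH5#3, a pooled fall of 3.70-fold (3.05 to 4.48, adjusted p = 1.01e-05). AGR2 went from 552, 340.4 and 388 to 103, 108 and 129 with siALKBH5#1 and 137, 112 and 121 with siALKBH5#3, a fall of 3.54-fold (2.82 to 4.46, adjusted p = 7.76e-05). The difference between the siRNAs did not pass for either gene (adjusted p = 0.0915 and 0.715). For TNFSF10 the siALKBH5#3 level lay 1.31-fold under that of siALKBH5#1 (1.05 to 1.63), and for AGR2 the ratio of the levels was 1.09 (0.84 to 1.42). CASP14, a caspase of terminal keratinocyte differentiation, fell 4.37-fold (3.05 to 6.26), although its controls were scattered at 119.9, 105 and 47.3 and all siRNA arrays were dim, at 17.8 to 24.0.

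ALDH3B2, an aldehyde dehydrogenase, fell 3.51-fold (2.97 to 4.14), CCNG2, an atypical cyclin that restrains the cell cycle, 2.56-fold (log2 -1.36 ± 0.15), and APAF1, the core of the apoptosome, 2.36-fold (1.96 to 2.85). CCNG2 read 1966, 1907 and 1763 in siControl, 911, 711 and 1055 with siALKBH5#1 and 640, 723 and 493 with siALKBH5#3. APAF1 read 273, 336 and 310.4 in siControl, 171, 138 and 183 with siALKBH5#1 and 93.2, 113 and 102 with siALKBH5#3. That every siRNA array lay below siControl is the rule by which these genes were chosen. A further group fell more with siALKBH5#1. TP53INP1, a p53-inducible regulator of stress responses, fell 3.48-fold, LMLN, a metalloprotease, 3.05-fold, and GAS2L3, a linker of actin and microtubules used in cytokinesis, 2.77-fold. The F-box-like protein NCCRP1 fell 2.61-fold, FNDC3A, a fibronectin type III protein, 2.60-fold, and NAALADL2, a glutamate carboxypeptidase-like protein, 2.44-fold. FNDC3A was 4.96-fold lower with siALKBH5#1 and 1.36-fold lower with siALKBH5#3, and NAALADL2 was 1.39-fold lower with siALKBH5#3, which did not pass on its own (adjusted p = 0.0805). Without the siRNA sequence in the model, GAS2L3, NCCRP1, FNDC3A and NAALADL2 were no longer called (adjusted p = 0.0865, 0.0638, 0.202 and 0.185).

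Among common genes beyond 2-fold, the 5 higher and 5 lower with the smallest difference between the siRNAs were taken as those with the most even values. DNMT3B, a de novo DNA methyltransferase, read 45.2, 51.2 and 41.3 in siControl and 83.2 to 111 over the 6 siRNA arrays, rising 2.11-fold (1.78 to 2.51). FAM43A, KCTD15, a BTB-domain protein, and ENDOV, an endonuclease of inosine-containing RNA, rose by 1.25 ± 0.16, 1.09 ± 0.14 and 1.12 ± 0.14 on the log2 scale (± SE), and SPECC1L-ADORA2A, a read-through transcript, by 1.07. EYA1, a transcriptional coactivator with phosphatase activity, read 584, 516 and 537 in siControl and 204 to 277 over the siRNA arrays, falling 2.23-fold (1.86 to 2.67), and TRANK1 and the lactate receptor HCAR1 fell by 1.18 and 1.12. With CASP14 and AGR2 these make up the 10, and their evenness is what they were chosen for. All 10 stayed called when any single array was left out, but with the siRNA as a random block 6 did not pass (adjusted p = 0.0637 for FAM43A, 0.0808 for SPECC1L-ADORA2A, 0.0742 for ENDOV, 0.0815 for KCTD15, 0.0828 for TRANK1 and 0.132 for HCAR1).

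The genes of the amino acid response, one of the lists read against these values, are induced by the transcription factor ATF4 when amino acids are short or the endoplasmic reticulum is stressed. Of 42 measured members 24 rose (57.1%, beside 5.31% of all clusters), none fell and 18 did not pass, with a median pooled change of 0.55, and 0.40 and 0.76 for siALKBH5#1 and siALKBH5#3. All 6 siRNA arrays lay above siControl for 20 of the 42 (beside 5.3% of all clusters). The siRNAs differed in 15 of the 24 (beside 47.2% of all pooled calls). Without the siRNA sequence in the model 8 of the 24 were called, and with the siRNA as a random block only ASNS, CHAC1 and SLC1A5 were. The list was drawn up with earlier results of these samples in view.

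The asparagine synthetase gene ASNS read 526, 577 and 677 in siControl, 1738, 1645 and 2135 with siALKBH5#1, and 2457, 2522 and 2286 with siALKBH5#3, a rise of 3.56-fold (2.97 to 4.27, adjusted p = 8.36e-06). CHAC1, which degrades glutathione, read 172, 206 and 173 in siControl, 576, 464 and 566 with siALKBH5#1, and 852, 939 and 827 with siALKBH5#3, a rise of 3.72-fold (3.13 to 4.42, adjusted p = 4.68e-06). The gap between the lowest siRNA array and the highest control was 1.28 for ASNS and 1.17 for CHAC1 on the log2 scale. PYCR1, which makes proline, rose 2.71-fold (2.22 to 3.31), and SLC7A1, a carrier of cationic amino acids, rose 2.16-fold (1.80 to 2.60). SLC7A1 read 4287, 4336 and 5733 in siControl, 8706, 7338 and 8734 with siALKBH5#1 and 13739.6, 12578 and 12020.5 with siALKBH5#3. The stress cytokine GDF15 rose 2.44-fold (1.87 to 3.18), from 82.7, 69.7 and 86.2 to 99.2 to 164 with siALKBH5#1 and 231 to 352 with siALKBH5#3. NUPR1, a stress-induced nuclear protein, rose 2.33-fold in the pooled comparison through siALKBH5#3 alone: it read 319 to 404 in siControl, 321 to 376 with siALKBH5#1 and 1794 to 2144 with siALKBH5#3, so its arrays overlapped. The calls of GDF15 and NUPR1 were lost without the siRNA sequence in the model (adjusted p = 0.0824 and 0.377).

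The promoters of these genes were read for the core of the C/EBP-ATF response element, to which ATF4 binds with a C/EBP partner, spelled TGATGNAA and searched on either strand. The windows were the 300 bases from 250 before to 50 after each start site given by RefSeq (GRCh38.p14). Of 18 ATF4-list genes of the common response with such a window, 7 held a match (38.9%), beside 32.4% (11 of 34) of the measured list, 5.73% (30 of 524) of all common higher genes, 3.59% (512 of 14250) of the array's named genes and 3.62% of all 35116 windows. Of 332 common lower genes with a window 9 held a match (2.71%), but the set held 417 genes, so the share covers only part of it. Coverage was partial for the array's named genes as well (14250 of 17687). A match is a string of letters, not a bound site. The list was drawn up as ATF4 targets, so its share of matches is no independent evidence. Its 7 genes are also counted within the 30. The 7 genes were CHAC1, ASNS, SLC7A1, SLC1A5, SLC1A4, ATF3 and SLC3A2, the last 4 of which are named because of the match. The windows of 4 of them are printed, because their transcripts rose more than 2-fold and together, with the match in capitals (5′ to 3′ on the strand of the gene, so that in CHAC1 the capitals show the core's reverse complement).
CHAC1, chr15:40953221-40953520, plus strand: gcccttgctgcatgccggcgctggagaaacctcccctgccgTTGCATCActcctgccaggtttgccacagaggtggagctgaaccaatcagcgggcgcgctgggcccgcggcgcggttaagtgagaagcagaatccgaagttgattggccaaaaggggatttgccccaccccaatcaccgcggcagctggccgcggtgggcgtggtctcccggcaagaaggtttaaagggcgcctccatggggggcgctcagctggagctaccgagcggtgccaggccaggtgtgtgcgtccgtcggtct
ASNS, chr7:97872359-97872658, minus strand: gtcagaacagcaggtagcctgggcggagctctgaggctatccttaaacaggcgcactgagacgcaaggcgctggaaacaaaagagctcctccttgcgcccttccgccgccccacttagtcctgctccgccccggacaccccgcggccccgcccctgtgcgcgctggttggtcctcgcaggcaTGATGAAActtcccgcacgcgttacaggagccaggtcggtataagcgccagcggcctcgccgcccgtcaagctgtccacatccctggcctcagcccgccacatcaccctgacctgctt
SLC7A1, chr13:29595639-29595938, minus strand: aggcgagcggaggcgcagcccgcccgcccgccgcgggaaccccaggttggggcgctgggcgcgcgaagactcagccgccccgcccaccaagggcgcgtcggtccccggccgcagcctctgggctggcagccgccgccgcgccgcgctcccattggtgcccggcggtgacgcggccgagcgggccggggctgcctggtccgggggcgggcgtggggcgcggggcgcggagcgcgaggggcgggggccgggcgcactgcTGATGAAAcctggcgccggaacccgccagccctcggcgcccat
SLC1A5, chr19:46784765-46785064, minus strand: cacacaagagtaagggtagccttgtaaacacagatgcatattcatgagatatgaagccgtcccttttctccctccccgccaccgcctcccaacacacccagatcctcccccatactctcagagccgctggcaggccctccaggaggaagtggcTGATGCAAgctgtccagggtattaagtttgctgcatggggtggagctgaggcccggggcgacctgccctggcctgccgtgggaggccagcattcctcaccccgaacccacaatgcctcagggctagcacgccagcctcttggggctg
The match began at position -68 from the start site in ASNS, -97 in SLC1A5, -209 in CHAC1 and 7 in SLC7A1. SLC1A5, a glutamine carrier, read 2377, 2602 and 2649 in siControl, 4792, 4717 and 5182 with siALKBH5#1 and 6100.4, 6333 and 5637 with siALKBH5#3, a rise of 2.14-fold (1.85 to 2.47, adjusted p = 0.000112). Its lowest siRNA array lay 0.83 above its highest control on the log2 scale.

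The aminoacyl-tRNA synthetases of the cytosol, which load amino acids onto tRNA, rose in 6 of 16 measured cases (37.5%, beside 5.31% of all clusters). Of the 6, 5 were separated (beside 60.8% of all called clusters). Of these 5, GARS1 for glycine rose by 0.81 ± 0.10 (log2 ± SE), YARS1 for tyrosine by 0.76 ± 0.10, WARS1 for tryptophan 1.63-fold (1.39 to 1.91), AARS1 for alanine 1.60-fold (1.38 to 1.86) and CARS1 for cysteine 1.54-fold (1.26 to 1.89). GARS1, for example, read 10621 to 11647 in siControl, 16766 to 19829 with siALKBH5#1 and 18860.5 to 22564 with siALKBH5#3. The siALKBH5#3 over siALKBH5#1 difference of these 5 ran from -0.13 to 0.26, none of which passed. CARS1 was not called without siControl replicate 2 (adjusted p = 0.0629) or without the siRNA sequence (0.0576), and SARS1 for serine, whose arrays overlapped, was not called without siControl replicate 1 (0.115). Without the siRNA sequence in the model 4 of the 6 were called, and none was with the siRNA as a random block (adjusted p from 0.0808 for GARS1 to 0.506 for SARS1).

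Cell cycle genes moved in both directions. Of 28 cyclins, CDKs and their inhibitors 5 rose and 2 fell (17.9% and 7.14%, beside 5.31% and 3.98% of all clusters), and without the siRNA sequence in the model the counts were 3 and 1. CCNE1, the cyclin of the G1/S transition, read 506, 542 and 677 in siControl, 1387, 1512 and 1697 with siALKBH5#1 and 1098, 1076 and 1078 with siALKBH5#3, a rise of 2.26-fold (1.89 to 2.69). CCND3, a D cyclin that activates CDK4 and CDK6, rose 2.00-fold (1.72 to 2.32), at 1952 to 2139.9 in siControl and 3607 to 4359 over the siRNA arrays. CDKN1A, the CDK inhibitor p21, and GADD45A, a growth arrest protein, also rose, 1.64-fold (1.39 to 1.93) and 1.87-fold (1.57 to 2.24). CDKN1A read 597, 684 and 531 in siControl, 924, 930.1 and 927 with siALKBH5#1 and 957, 1120.5 and 1072 with siALKBH5#3, above the controls throughout. CDKN2A, which encodes p16, was lower in the pooled comparison through siALKBH5#3 only, at 15766 to 22722 in siControl, 19321 to 24661 with siALKBH5#1 and 5497 to 6798 with siALKBH5#3.

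In the list for DNA replication and the G1/S step, 7 of 43 genes rose and none fell, while 7 of 41 genes of G2/M and mitosis fell and none rose, each beside 5.31% higher and 3.98% lower of all clusters. E2F1 led the first list and E2F2 rose by 0.67 ± 0.12 (log2 ± SE). In the second list, after GAS2L3, the spindle proteins DLGAP5 and CENPE had pooled falls of 0.56 and 0.51. These counts were unsteady: the G1/S count was 4, 3 and 4 without siALKBH5#3 replicate 2, siControl replicate 1 and siControl replicate 2, the G2/M count was 4 without siALKBH5#1 replicate 2, siALKBH5#3 replicate 2 or siControl replicate 3, and without the siRNA sequence in the model they were 1 and 0. With an intensity trend and a robust prior the G1/S count was 11. The siRNAs differed in 6 of the 7 called G2/M genes (beside 47.2% of all pooled calls). The medians of that list were -0.04 with siALKBH5#1 and -0.23 with siALKBH5#3. DLGAP5 had values of -0.25 (adjusted p = 0.282 by limma) and -0.86, PTTG1 of -0.03 and -1.03, and GTSE1 of -0.85 and -0.11, in the same order.

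Of 42 genes of the apoptosis machinery 3 rose (7.14%, near the 5.31% of all clusters) and 5 fell (11.9%, beside 3.98%). Next to TNFSF10, APAF1 and CASP14, BNIP3L, a mitophagy receptor of the BCL2 family, fell 1.61-fold (1.38 to 1.87), from 17738 to 19489.9 in siControl to 10289 to 12874 over the siRNA arrays. PMAIP1 (NOXA), a BH3-only death protein, rose by 0.90 ± 0.11 on the log2 scale (± SE), at 147 to 179 in siControl, 246 to 283 with siALKBH5#1 and 294 to 359 with siALKBH5#3. AIFM2, which protects membrane lipids from oxidation, rose 1.81-fold (1.46 to 2.24). Of 22 p53 targets 3 rose (GDF15, CDKN1A and the nuclease AEN) and TP53INP1 fell (13.6% and 4.55%, the latter near the 3.98% of all clusters), with a median pooled change of -0.01. PMAIP1 and GADD45A, which rose, were placed in other lists and are not counted in this one.

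Genes of secretory and mucosal epithelium fell in 9 of 30 cases (30%, beside 3.98% of all clusters) and rose in none. RNASE1, a secreted ribonuclease, fell 2.12-fold (1.73 to 2.58), from 5797 to 8162 in siControl to 3416 to 4130 with siALKBH5#1 and 2441 to 2931 with siALKBH5#3. ANPEP, a surface aminopeptidase, fell 1.97-fold (1.68 to 2.32), CXCL17, a mucosal chemokine, by 0.94 ± 0.13 (log2 ± SE) and ELF3, an epithelial transcription factor, 1.75-fold (1.41 to 2.18). MUC1, a membrane mucin, fell by 0.81, but its arrays overlapped and its call was lost without siControl replicate 1 (adjusted p = 0.0606). The call of ELF3 was lost without the siRNA sequence in the model, under which 5 of the 30 were called.

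Mesenchymal and matrix genes rose in 10 of 32 cases (31.2%, beside 5.31% of all clusters). Only 4 of the 10 were separated (beside 60.8% of all called clusters), and the siRNAs differed in 8 of the 10 (beside 47.2%). After MFAP5, the highest were carried by a single siRNA and are given with the overlapping genes below, and the count was 6, 5 and 5 without siALKBH5#3 replicate 1, siALKBH5#3 replicate 2 and siControl replicate 1, and 1 without the siRNA sequence in the model. Of 31 keratinocyte genes 5 rose (among them PI3, SERPINB7 and the keratin KRT6C) and 4 fell (among them CASP14 and NCCRP1), which is 16.1% and 12.9% beside 5.31% and 3.98% of all clusters. These counts were 3 and 3 without siALKBH5#1 replicate 1, siALKBH5#1 replicate 2 or siControl replicate 2 and with the replicate block, 3 and 4 without siALKBH5#1 replicate 3, and 1 and 1 without the siRNA sequence. Of 22 genes of the neuronal cytoskeleton 2 rose (9.09%, near the 5.31% of all clusters). INA, an intermediate filament protein of neurons, rose 1.81-fold (1.55 to 2.13), from 12932 to 13591 in siControl to 22518 to 28489 over the siRNA arrays. MAP1B, a microtubule-associated protein, rose 1.78-fold (1.46 to 2.17).

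Among 36 growth factor receptors and ephrins 7 rose and 1 fell (19.4% and 2.78%, beside 5.31% and 3.98% of all clusters). MET, the receptor of hepatocyte growth factor, read 12565, 14528 and 14427 in siControl, 24279, 23866 and 23769 with siALKBH5#1 and 30832, 32253 and 29130.4 with siALKBH5#3, a rise of 1.96-fold (1.70 to 2.27, adjusted p = 0.000222). The ephrin EFNB2 rose 2.16-fold (1.78 to 2.63) and the ephrin receptor EPHA4 by 1.06 ± 0.12 (log2 ± SE), the latter by 0.35 with siALKBH5#1 and 1.77 with siALKBH5#3. EGFR, the driver of this line and the one epithelial line marker that passed, read 4011, 5154 and 4611 in siControl, 7074, 6818 and 6888 with siALKBH5#1 and 5908, 6244 and 5806 with siALKBH5#3, a rise of 0.49 ± 0.10 on the log2 scale (± SE, adjusted p = 0.0131). Its call was lost without siControl replicate 1 and without the siRNA sequence in the model. Its partner ERBB3 was the member that fell, by 1.34-fold (1.17 to 1.55), and both are named after their values were seen. The ERBB3 call was likewise lost without siControl replicate 1 and without the siRNA sequence in the model. The count of 7 was 3 without siControl replicate 1, 4 without siControl replicate 2 and 2 without the siRNA sequence in the model. Of 20 feedback and target genes of the ERK pathway 3 rose and 2 fell (15% and 10%, beside 5.31% and 3.98% of all clusters), but only MYC, a growth-promoting transcription factor, was separated (0.54 ± 0.13). Its call was lost without siControl replicate 1 (adjusted p = 0.111), the count of 3 was 0 without siALKBH5#1 replicate 3, siALKBH5#3 replicate 2 or siControl replicate 2 and 1 without siALKBH5#1 replicate 1, siALKBH5#1 replicate 2, siALKBH5#3 replicate 1 or siControl replicate 1, and no member was called when the siRNA sequence was left out of the model.

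Genes of ribosome biogenesis rose in 7 of 28 cases (25%, beside 5.31% of all clusters) and fell in none, and all siRNA arrays lay above siControl for 10 of the 28 (beside 5.3% of all clusters). NOP16 rose 1.65-fold (1.44 to 1.90), at 1156 to 1193 in siControl, 1786 to 1942 with siALKBH5#1 and 1978 to 2089.8 with siALKBH5#3, and NLE1 rose 1.87-fold (1.55 to 2.27). The count was 4 without siControl replicate 1, 11 with an intensity trend and a robust prior, and 2 without the siRNA sequence. Type I interferon genes fell in 9 of 36 cases (25%, beside 3.98% of all clusters) and rose in none, with PARP9 (1.73-fold, 1.41 to 2.12), PARP14 and HERC6 (1.64-fold, 1.39 to 1.93) lowest. PARP9 read 747 to 1107 in siControl and 466 to 606 over the siRNA arrays, and HERC6 read 274 to 319 and 166 to 212. This count was 4, 5, 5, 3 and 5 without siALKBH5#1 replicate 2, siALKBH5#1 replicate 3, siALKBH5#3 replicate 3, siControl replicate 1 and siControl replicate 2, and 2 without the siRNA sequence. Of 31 genes of hypoxia and glycolysis 7 fell and 1 rose (22.6% and 3.23%, beside 3.98% and 5.31% of all clusters), ALDOC, an aldolase, falling most (2.29-fold, 1.98 to 2.66). ALDOC read 859 to 986 in siControl, 556 to 618 with siALKBH5#1 and 261 to 290.1 with siALKBH5#3. The count of 7 ranged from 1 without siControl replicate 1 to 5 without siALKBH5#3 replicate 1 when single arrays were left out, was 4 with the replicate block, and was 0 without the siRNA sequence.

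**Figure D3:**
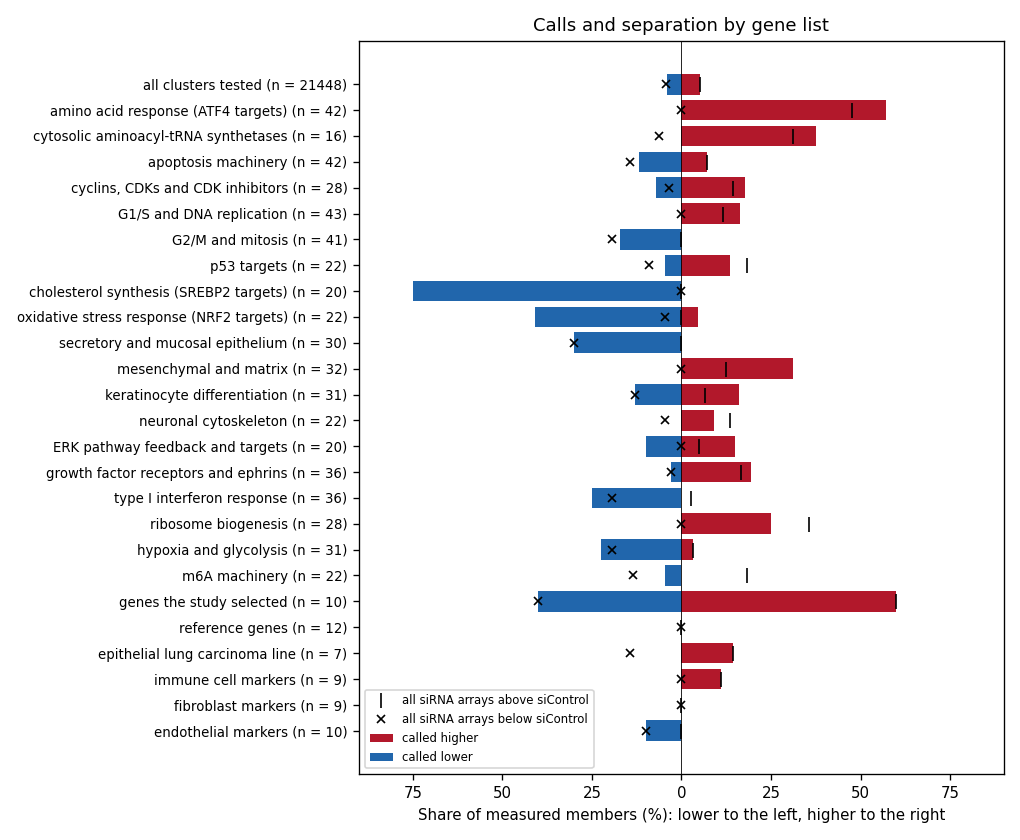
Bars give the share of measured members of each gene list that were called higher (red, to the right) or lower (blue, to the left) in the pooled comparison, and marks give the share with all 6 siRNA arrays above (strokes) or below (crosses) all 3 siControl arrays. The amino acid response has 57.1% called higher, and cholesterol synthesis has 75% called lower with no separated member.

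Of 22 genes that write, erase or read m6A, ALKBH5 was the only one called in the pooled comparison. That is 4.55% lower and 0% higher, beside 3.98% and 5.31% of all clusters. All siRNA arrays lay above siControl for 4 of the 22 and below for 3 (beside 5.3% and 4.36% of all clusters). YTHDF2, YTHDC2 and ALKBH3 were on the list too but were not matched to a cluster, so they were not read here, although the paper reports values for them. FTO, the other eraser, read 7664, 6598 and 7147 in siControl, 5637, 5394 and 6203 with siALKBH5#1 and 6385, 5074 and 5128 with siALKBH5#3, below the controls on every siRNA array, but its pooled value of -0.34 ± 0.11 on the log2 scale (± SE) did not pass (adjusted p = 0.0787). The reader HNRNPC was also separated on the lower side, and the writers METTL5, RBM15 and WTAP and the reader YTHDF1 on the higher side, with pooled values of -0.28, 0.40, 0.30, 0.25 and 0.35. METTL3 and METTL14, the catalytic core, had pooled values of -0.14 ± 0.13 and -0.25 ± 0.16 (log2 ± SE), with arrays that overlapped. VIRMA, a scaffold of the writer complex, was 2.12-fold lower with siALKBH5#1 and 1.07-fold higher with siALKBH5#3, which averaged to -0.49 (adjusted p = 0.0507). With an intensity trend and a robust prior, 5 of the 22 were called higher and 5 lower.

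All 10 genes that the study picked from these samples were called and separated, 6 higher (E2F1, GADD45A, CDKN1A, PMAIP1, TIMP3 and AKAP12) and 4 lower (CASP14, CCNG2, AGR2 and ELF3). They were chosen on these arrays, so their direction here is no independent evidence, and GADD45A and ELF3 were not called without the siRNA sequence in the model (adjusted p = 0.0545 and 0.0595). By qPCR in PC9 the paper reports CDKN1A, E2F1, GADD45A and TIMP3 as higher after the knockdown and CCNG2 and CASP14 as lower. It does not name PMAIP1, AKAP12, AGR2 or ELF3 in that qPCR result. TIMP3, an inhibitor of matrix metalloproteinases, and AKAP12, a kinase scaffold, rose by 0.70 ± 0.10 and 0.88 ± 0.11 (log2 ± SE).

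Among the 780 called clusters with overlapping arrays, the siRNAs differed in 633 (81.2%). In the genes given next, the pooled value was an average of a large effect and a small one. FN1 (fibronectin) read 166, 227 and 253 in siControl and 277, 168 and 308 with siALKBH5#1, but 2444, 1903 and 2086 with siALKBH5#3. COL8A1, a short-chain collagen, was its reverse, at 165, 141 and 91.1 in siControl, 1375, 1142 and 1381 with siALKBH5#1 and 165, 119.7 and 158 with siALKBH5#3. Their pooled rises were nearly equal, 3.39-fold (2.53 to 4.55) and 3.38-fold (2.58 to 4.44), while the siRNAs differed by 3.13 and -3.15 on the log2 scale. SCG2, a secretogranin, followed COL8A1 (7.20-fold with siALKBH5#1, 1.13-fold with siALKBH5#3). PTGS2, the inducible cyclooxygenase, followed FN1, with 7.22-fold for siALKBH5#3 and a siALKBH5#1 value 1.15-fold below siControl. On the lower side, PRKCH, a protein kinase C, fell 4.95-fold with siALKBH5#1 and was 1.06-fold lower with siALKBH5#3, whereas TMTC3, an O-mannosyltransferase, and SLCO4C1, an organic anion carrier, fell 5.92-fold and 4.78-fold with siALKBH5#3 alone. None of these 7 was called without the siRNA sequence in the model (adjusted p = 0.324 to 0.451).

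**Figure D4:**
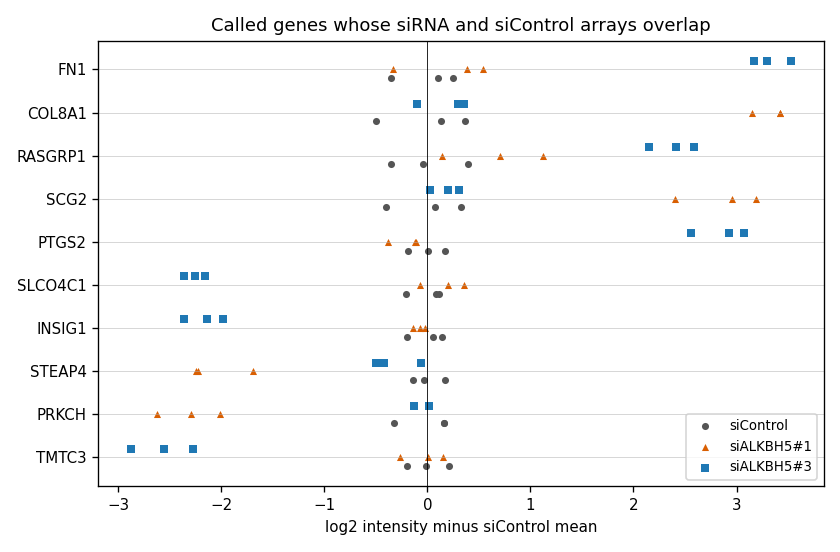
Points are single arrays of the 5 highest and 5 lowest called genes whose siRNA and siControl arrays overlap, as log2 intensity minus the siControl mean, with grey circles for siControl, orange triangles for siALKBH5#1 and blue squares for siALKBH5#3 (3 arrays each). In each gene 1 siRNA stays in or near the control range, as for FN1 with siALKBH5#1 and COL8A1 with siALKBH5#3.

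The same held for whole pathways. Genes of cholesterol synthesis, which the transcription factor SREBP2 controls, fell in 15 of 20 cases (75%, beside 3.98% of all clusters) in the pooled comparison, more than any other list, yet none of the 20 was separated. The siRNAs differed in all 15 (beside 47.2% of all pooled calls), and the list's median was 0.17 with siALKBH5#1 and -1.21 with siALKBH5#3. INSIG1, which retains the SREBP complex in the endoplasmic reticulum, read 1957, 1648 and 2087 in siControl, 1710, 1795 and 1857 with siALKBH5#1 and 368, 428 and 477 with siALKBH5#3. HSD17B7, a sterol reductase, was 1.37-fold higher with siALKBH5#1 (adjusted p = 0.079) and fell 3.96-fold with siALKBH5#3. LSS, which closes the sterol rings, MVD and FDPS had siALKBH5#1 values of -0.07, 0.05 and 0.13 and siALKBH5#3 values of -1.42, -1.45 and -1.39 on the log2 scale. The count of 15 was 9 without siControl replicate 1 or replicate 2, and 0 without the siRNA sequence in the model.

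NRF2 targets, the enzymes of the oxidative stress response, fell in 9 of 22 cases and rose in 1 (40.9% and 4.55%, beside 3.98% and 5.31% of all clusters), with list medians of 0.31 and -0.60 for the single siRNAs and 1 separated member. AKR1B10, an aldo-keto reductase, was 0.81 higher with siALKBH5#1 and 1.74 lower with siALKBH5#3 on the log2 scale, so that the pooled value of -0.46 described neither. The drug exporter ABCC3 had a siALKBH5#1 value of -0.07 and fell by 1.45 with siALKBH5#3. The count of 9 was 5, 4 and 2 without siALKBH5#3 replicate 2, siControl replicate 1 and siControl replicate 2, and 0 without the siRNA sequence. Vimentin (VIM), the mesenchymal filament, was instead higher with siALKBH5#3 alone, at 1245 to 1328 in siControl, 1037 to 1324 with siALKBH5#1 and 3416 to 3749 with siALKBH5#3.

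How often arrays were separated depended on brightness. When clusters were put into 10 bins of equal size by their siControl mean, 3.36% of the dimmest bin were separated and 0.746% were called, against 16% and 13.8% of the brightest. The negative control probe sets of the array, which carry no transcript, were separated in 19 of 612 cases (3.1%), the bright positive control sets in 243 of 2197 (11.1%, 156 higher and 87 lower, beside 9.67% of all clusters) and the probe sets for ERCC spike-in RNA in 6 of 63 (9.52%). Neither the sample titles nor the study's methods say that ERCC RNA was added. The median intensity of these sets was 22.4, beside 17.7 for the negative control sets. At the limit of the rule, TFCP2L1 was just inside, its lowest siRNA array and its highest control both reading 149, as was TBC1D10B, with both at 78.6. COL4A3 and PAX8 were just outside, with both values at 13.7 and at 38.7. Separation alone, with no minimum gap, thus held a range of cases from 4.39 on the log2 scale for ALKBH5 to nearly 0, and 356 of the 2073 clusters had a gap of at least 0.25.

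**Figure D5:**
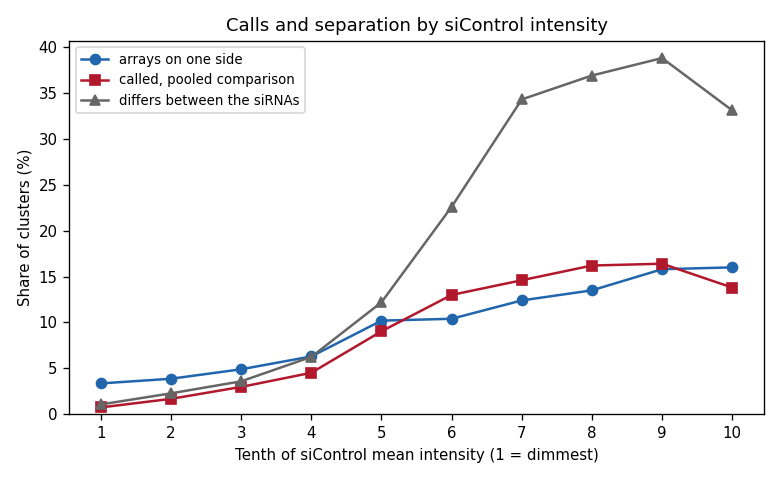
Clusters are split into 10 bins of equal size by their mean siControl intensity (x axis, 1 is the dimmest), and lines give the share of each bin in percent (y axis) that was separated (circles), called in the pooled comparison (squares) or called between the siRNAs (triangles). The separated share climbs from 3.36% to 16%, and the share that differs between the siRNAs passes 30% in the 4 brightest bins.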

How the data were processed

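RNA of 9 PC9 samples, 3 each of siControl, siALKBH5#1 and siALKBH5#3, was hybridised to Clariom S human arrays, 1 colour. The authors deposited linear intensities, made with RMA (background correction, normalization between arrays and summary per probe set), and the processing notes also name Affymetrix Expression Console and hg38. The study's methods name the service company's analysis tool, and which step set the final scale was not settled. Of 24351 entries, 2903 control probe sets were left out, and 17709 of 21448 clusters had 1 gene symbol. Intensities, all above 0, were taken to log2 with no further normalization and no filter. The number of arrays limits the precision.

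A mean per group was fitted with limma 3.58.1 in R 4.3.3 (residual degrees of freedom 6), with 2-sided moderated tests of the mean of both siRNA effects, of each siRNA against siControl, and of siALKBH5#3 against siALKBH5#1. P-values were adjusted by Benjamini-Hochberg over all 21448 clusters, intervals are 95% and unadjusted for the number of genes, and a fold below siControl is given as its inverse. The fit was tested on simulated data. Same-numbered arrays did not deviate together, so no pairing was used.

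The members of the comparison and the gene lists were chosen with earlier results of these data known, so the lists are described by counts and not tested. A gene was read from its brightest cluster. Named genes were ALKBH5, the 14 highest and 14 lowest common genes, the 5 higher and 5 lower of them beyond 2-fold with the smallest difference between siRNAs, the 5 highest and 5 lowest called genes with overlapping arrays, the 2 clusters just inside and just outside the rule, up to 6 called members per list, and the m6A and study-selected lists. Promoter windows of 300 bases came from RefSeq, assembly GRCh38.p14. Alternatives covered the prior, normalization, pseudocount, filter, threshold, siRNA term, replicate block, test and single arrays. Array gene symbols came from the platform annotation. Figures were drawn with matplotlib 3.10.9.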

Additional observations from a re-analysis of the deposited data

Results flagged for a closer look

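Within the pooled comparison, 941 of the 1992 called clusters also differed between the siRNAs by limma's test of that difference (adjusted p under 0.05 over all clusters). Among the 28 highest and lowest common genes, 21 did so. On the log2 scale, siALKBH5#3 minus siALKBH5#1, the higher genes with the greater rise for siALKBH5#3 were OLR1 (3.13), SEMA7A (2.63), ULBP1 (1.68), ADAMTS9 (1.56), THBD (0.98), PYCR1 (0.85), CHAC1 (0.71) and MFAP5 (0.52). Those with the greater rise for siALKBH5#1 were PI3 (-1.53), OSBP2 (-0.80) and HMGA2 (-0.62). Among the lower genes, the fall was deeper with siALKBH5#3 for TMT1A (-2.30), ALKBH5 itself (-1.45), APAF1 (-0.67) and ALDH3B2 (-0.47). It was deeper with siALKBH5#1 for FNDC3A (1.86), NAALADL2 (1.61), GAS2L3 (1.37), LMLN (1.15), NCCRP1 (1.14) and TP53INP1 (0.95). Groups of 3 arrays are too small for a test of single outlying arrays.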

How the results depend on the processing

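The 1992 pooled calls kept within 1.5 times that count with an intensity trend and a robust prior (2868), quantile normalization (1977), log2 of intensity + 16 (2600) or the dimmest clusters left out (2328). They were 857 with a fold over 1.5 added, 232 with the siRNA sequence left out of the model and 20 with it as a random block, and all 232 and all 20 were among the 1992 and had separated arrays. These fits and the rule of separation use the same values, so that overlap is a description only. The methods' t-test, applied to 6 against 3 arrays, gave 399 at the methods' own thresholds of p and fold and 189 after Benjamini-Hochberg. Leaving out single arrays gave 1125 (without siControl replicate 1) to 1862 (without siControl replicate 3) calls, and 1252 without siControl replicate 2. The 2073 separated clusters became 356 with a gap of at least 0.25 on the log2 scale, and 2305 to 3801 with single arrays left out. Without siControl replicates 1, 2 and 3 the number was 3220, 3321 and 3801, since fewer control arrays have to be cleared. The 4097 clusters that differed between the siRNAs stayed within 1.5 times under every alternative run. With the replicate number as a block, 1652 clusters were called in the pooled comparison, 1576 of them shared with the 1992, and 3774 between the siRNAs. Same-numbered arrays had correlations of -0.147 to 0.123 in their deviations from the group means, beside -0.1755 to 0.1722 for differently numbered arrays. The numbers thus showed no sign of pairing, but a pairing that is weak or confined to some genes could be missed. No named gene reversed. The 163 named genes include some that were not called to begin with, among them 21 of the m6A list, and these could not lose a call. Of the called ones, 78 lost their call with the siRNA sequence left out, 33 without siControl replicate 1, 25 without siControl replicate 2 and 6 with the replicate block. The counts of list members under each alternative were added after seeing the data.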
